A study of Bos taurus with 15 samples.

Results

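The class II major histocompatibility genes of cattle were followed through single-cell libraries of the digestive tract. The members were 7 gene symbols chosen by name: BOLA-DRA, BOLA-DRB3, BOLA-DMA, BOLA-DMB, BOLA-DOA, CD74 and CIITA. Of these 7 symbols, 6 were matched among the 27270 genes listed in every library, and BOLA-DRB3 was not analysed here. The matched identifiers were ENSBTAG00000010645 (BOLA-DRA), ENSBTAG00000015730 (BOLA-DMA), ENSBTAG00000012451 (BOLA-DMB), ENSBTAG00000006490 (BOLA-DOA), ENSBTAG00000015228 (CD74) and ENSBTAG00000020649 (CIITA).

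Class II molecules are cell surface dimers that show peptides from engulfed material to T cells carrying CD4, and professional antigen presenting cells (macrophages, dendritic cells and B cells) are known for them. BOLA-DRA encodes the alpha chain of the DR dimer, and CD74 encodes the invariant chain that fills its groove on the way to the endosome. There BOLA-DMA and BOLA-DMB form the DM dimer, which trades the remnant of the invariant chain for a peptide, BOLA-DOA and its partner BOLA-DOB form the DO dimer, which restrains DM, and CIITA is the transactivator that switches the genes of the family on.

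The libraries were 10x Genomics single-cell libraries of Holstein cattle, with no genetic change or treatment given in the labels. Newborn (NB) animals gave 11 libraries (salivary gland and liver; the stomach compartments reticulum, omasum and abomasum; the small intestine as duodenum, jejunum and ileum; and the large intestine as cecum, colon and rectum), and adult (AD) animals gave 4 (duodenum, jejunum, cecum and colon). The 4 AD libraries came from 1 lactating cow and the NB libraries from 3 calves, with the calf of each library not given in the sources used here. Each tissue had 1 library per stage, so no comparison between stages had replicates and no test was made. Stage, animal and dissociation cannot be told apart. The NB stomach and intestine samples were treated with EDTA and trypsin before enzymes, which for the intestine came from a Propria Dissociation Kit. For the AD samples no EDTA and trypsin step before digestion is described. They were dissociated with a Lamina Propria Dissociation Kit (duodenum and cecum) or another tissue kit (jejunum and colon).

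The libraries held 17707625 to 129458578 unique molecular identifiers (UMIs), and 119798 of 172405 barcodes passed the filters, 2636 to 11614 per library. Median UMIs per barcode were 4399 to 8982 in NB and 3553 to 3910 in AD libraries. The 105 pairs of libraries shared 4 to 84 barcode sequences, at most 1.02% of the smaller library. Barcodes were divided by 4 lineage genes: EPCAM (epithelium), PTPRC (leukocytes), COL1A2 (fibroblasts) and PECAM1 (endothelium), with at least 1 UMI of one gene and 0 of the other three. UMIs of a gene were summed over the barcodes of a group and scaled to a fixed total of UMIs per group (CPM, the usual unit for counts), with exact 95% Poisson intervals, and ratios with exact conditional intervals; these cover counting error only, and all the intervals given below are of that kind. The groups carried the genes of their lineage: summed epithelial markers reached 1251 to 21959 CPM in NB and 4685 to 9358 CPM in AD EPCAM barcodes, leukocyte markers 3609 to 7150 CPM and 6530 to 8658 CPM in PTPRC barcodes, and fibroblast markers 7910 to 61033 CPM in NB and 16152 CPM in AD COL1A2 barcodes. In reticulum and omasum the lineages were mixed, with epithelial markers at 8155 and 7871 CPM in COL1A2 barcodes and at 1352 and 1535 CPM in PECAM1 barcodes, against at most 125 CPM in those groups of the other NB libraries. Where the UMIs of one gene are divided by those of another, the ratio is compared between groups of barcodes and is not a ratio of transcripts.

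BOLA-DRA spanned more than 3 orders of magnitude between groups of barcodes. PTPRC barcodes were divided further by lists of marker genes, with at least 2 UMIs of one list and 0 of the others: the T cell list (CD3D, CD3E, CD3G), the B cell list (CD79A, CD79B, MS4A1, PAX5) and the macrophage list (CSF1R, C1QA, C1QB, C1QC, CD68). FLT3 barcodes, chosen by a receptor of dendritic cells, held at least 1 FLT3 UMI and 0 of the T and B cell lists. The macrophage list was not excluded from them, so a barcode could be in both groups and their values are not independent. In macrophage-list barcodes BOLA-DRA reached 4761 CPM at the lowest (NB liver) and 28960 CPM at the highest (AD duodenum). Within the same library its level there was 31.1 to 713 times that in T cell-list barcodes (8 of 8 libraries, median 239) and 5.21 to 11.7 times that in B cell-list barcodes (6 of 6 libraries). Macrophage-list and FLT3 barcodes were closer: their BOLA-DRA ratio ran from 0.417 in NB liver to 1.60 in AD duodenum over 7 libraries, above 1 in 4 of them. After each barcode was thinned to 1000 UMIs, a BOLA-DRA UMI was found in 67.8 to 98.4% of NB and 94.2 to 100% of AD macrophage-list barcodes, and in 0.901 to 15.9% of NB and 2.15 to 13.8% of AD T cell-list barcodes; without thinning the macrophage shares were 88.4 to 99.5% and 95.7 to 100%, and the T cell shares 4.50 to 61.8% and 6.91 to 42.0%. Barcodes under 1000 UMIs were left out of the thinned shares, at most 1.19% of macrophage-list and 0.551% of T cell-list barcodes of a library.

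**Figure D1:**
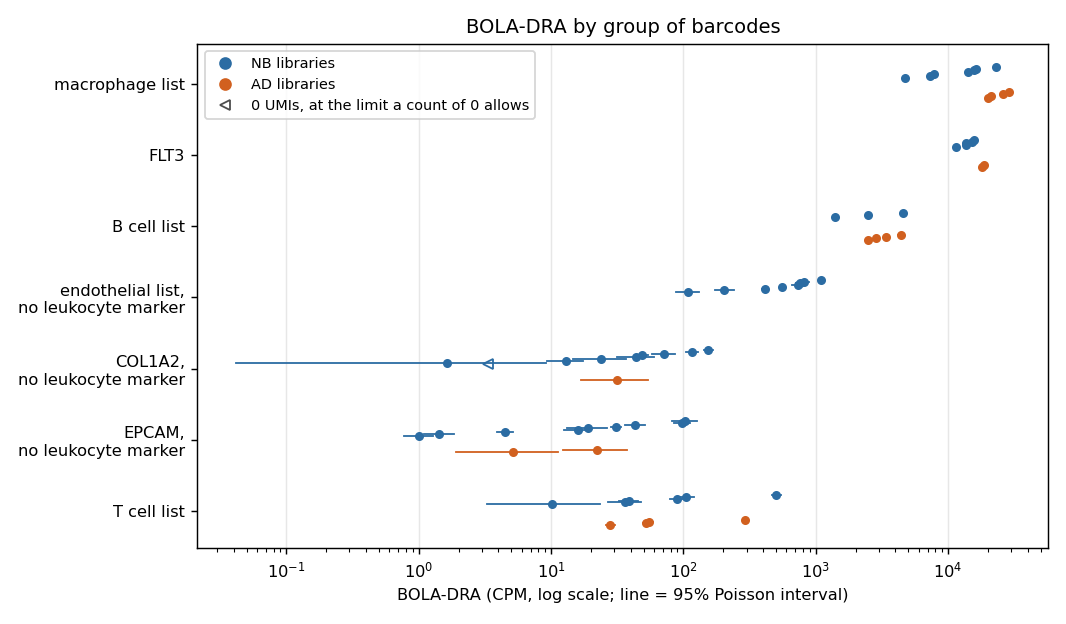
BOLA-DRA level in CPM (log scale) in 7 groups of barcodes, 1 point per library with at least 50 barcodes of that group (NB blue, AD orange), with 95% Poisson intervals as lines; an open triangle marks 0 UMIs at the limit that a count of 0 allows. Macrophage-list and FLT3 barcodes lay highest, from 4761 to 28960 CPM, B cell-list barcodes lay between 1393 and 4541 CPM, and endothelial barcodes lay between the B cells and most of the remaining groups.

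Macrophage-list barcodes were compared between the stages in 4 tissues; a shared marker list does not fix the type or state of the cells. The invariant chain gene CD74 was higher in AD in all 4 tissues by at least 2-fold, with CIITA as the second gene in 3 of 4. CD74 measured 21701 CPM in NB and 57617 CPM in AD duodenum, 15410 and 44433 CPM in jejunum, 19208 and 38560 CPM in cecum, and 12790 and 41449 CPM in colon. Every AD value lay above every NB value, those of ileum, rectum and liver included, and the median of the 7 NB libraries was 12790 CPM. The AD to NB ratio of CD74 was 2.66 (2.63 to 2.68) in duodenum, 2.88 (2.87 to 2.90) in jejunum, 2.01 (1.97 to 2.04) in cecum and 3.24 (3.17 to 3.31) in colon. In cecum the log2 ratio was just past 2-fold (1.01) and just under it (0.98) with at least 3 UMIs of the list required.

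BOLA-DRA, the chain that CD74 escorts, differed less in the same barcodes. It measured 22926 CPM in NB and 28960 CPM in AD duodenum, 16234 and 26006 CPM in jejunum, 15728 and 20964 CPM in cecum, and 14065 and 19988 CPM in colon. AD was the higher of the pair in each tissue, by 1.26 to 1.60 times, but the groups overlapped, since NB duodenum lay above AD cecum and AD colon. The other NB libraries were lower, with 7251 CPM in ileum, 7810 CPM in rectum and 4761 CPM in liver.

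CIITA counts were small. The transactivator measured 11.8 CPM (30 UMIs) in NB and 31.4 CPM (50 UMIs) in AD duodenum, 10.7 CPM (118 UMIs) and 28.4 CPM (298 UMIs) in jejunum, 15.7 CPM (66 UMIs) and 23.4 CPM (9 UMIs) in cecum, and 9.55 CPM (9 UMIs) and 49.6 CPM (29 UMIs) in colon. The 4 AD values lay above all 7 NB values, of which the highest was 17.5 CPM in rectum. Its ratio was 2.66 (1.66 to 4.33), 2.65 (2.13 to 3.30), 1.49 (0.651 to 2.997) and 5.19 (2.39 to 12.5) in that order of tissues, so the difference in cecum was within counting error. With 20 CPM added in place of 5 CPM, CIITA in duodenum and jejunum was no longer past 2-fold (log2 ratios of 0.69 and 0.66).

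The DM and DO genes were within 2-fold between the stages in 3 of the 4 tissues. BOLA-DMB measured 1558 CPM in NB and 1867 CPM in AD duodenum, 1250 and 2016 CPM in jejunum, 1299 and 1653 CPM in cecum, and 773 and 1848 CPM in colon. Only the colon pair was at least 2-fold apart, by 2.39 times (2.17 to 2.63), and the same held for BOLA-DOA, with 143 CPM in NB and 308 CPM in AD colon, a ratio of 2.15 (1.71 to 2.71). BOLA-DMA was higher in AD in all 4 tissues by 1.16 to 1.82 times.

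Counted together, 2 of 6 members in duodenum (CD74 and CIITA), 2 of 6 in jejunum (the same genes), 1 of 6 in cecum (CD74) and 4 of 6 in colon (BOLA-DMB, BOLA-DOA, CD74 and CIITA) were at least 2-fold higher in AD. Over all genes with at least 10 CPM in either library, the corresponding shares were 3.54% in duodenum, 4.53% in jejunum, 7.62% in cecum and 18.6% in colon. BOLA-DMA, BOLA-DMB, CD74 and CIITA, 4 of 6 members, were higher in each of the 4 AD libraries than in any of the 7 NB libraries, against 9.74% of all genes. Except for CD74, the smallest gaps were within counting error. They were 1176 CPM in AD colon and 1129 CPM in NB duodenum for BOLA-DMA, and 1653 CPM in AD cecum and 1558 CPM in NB duodenum for BOLA-DMB. For CIITA they were 23.4 CPM in AD cecum and 17.5 CPM in NB rectum. The median of all genes was itself shifted toward AD by 0.094 to 0.29 on the log2 scale, and these counts were not recomputed centred on it. The AD barcodes were shallower, with medians of 2957 to 5444 UMIs per barcode against 6454 to 11728 in the NB libraries of the same tissues, and they held more of the plasma cell markers JCHAIN, MZB1, XBP1 and DERL3 (107 to 1295 CPM summed, against 29.6 to 57.6 CPM in NB). The part of either in the member levels was not tested.

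**Figure D2:**
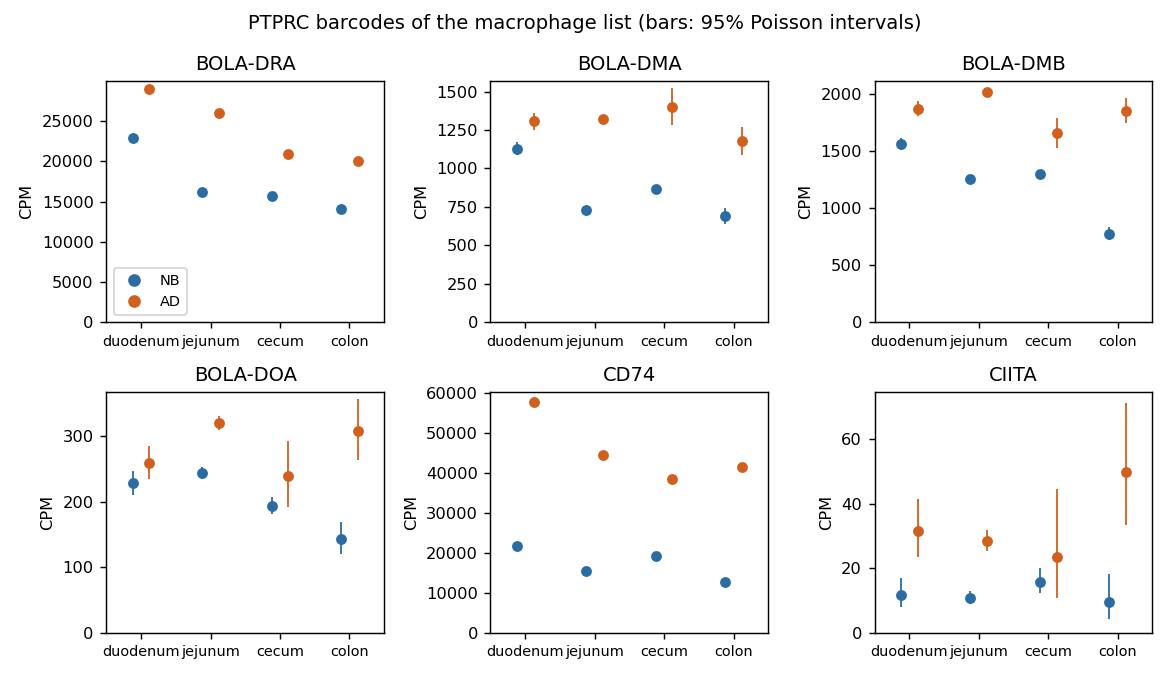
Level in CPM (linear scale from 0) of each member in macrophage-list barcodes of the 4 tissues with both stages, NB blue and AD orange, 1 library per point with its 95% Poisson interval. AD lay above NB in every pair, by 2.01 to 3.24 times for CD74, and the intervals overlapped for CIITA in cecum and for BOLA-DOA in duodenum and cecum.

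The number of CD74 UMIs per BOLA-DRA UMI separated the stages in leukocyte barcodes. In this measure the UMIs of CD74 over BOLA-DRA are divided within the same barcodes, so that a different number of antigen presenting cells cancels if they all carry both genes alike. In all PTPRC barcodes the ratio CD74 over BOLA-DRA was 0.776 at the lowest (liver), 1.00 at the median and 1.27 at the highest (ileum) in 9 NB libraries, and 1.69 (jejunum) to 2.09 (colon) in the 4 AD libraries. The groups did not overlap. Among all genes, 0.265% had a ratio to BOLA-DRA that was higher in each AD library than in any NB library, and among the other 5 members CD74 was the single one. In EPCAM and PECAM1 barcodes the groups overlapped, in this and each other setting run: the ratio was 2.13 to 2.38 in AD and 0.905 to 8.24 in NB EPCAM barcodes, and 1.57 to 2.35 in AD and 0.909 to 2.09 in NB PECAM1 barcodes.

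The same order held in macrophage-list, B cell-list and FLT3 barcodes, of which the macrophage-list and FLT3 groups can share barcodes. In macrophage-list barcodes the ratio CD74 over BOLA-DRA was 1.71 in AD jejunum, 1.84 in cecum, 1.99 in duodenum and 2.07 in colon, against 0.784 in NB liver, 0.909 in colon, 0.947 in duodenum, 0.949 in jejunum, 1.00 in rectum, 1.14 in ileum and 1.22 in cecum. CD74 was 1 of 5 members apart in this way, against 0.332% of all genes. A ratio to BOLA-DRA lower in each AD library than in any NB library was found for 11.7% of all genes and 0 of 5 members. The 2 directions were therefore not balanced over all genes. In B cell-list barcodes CD74 over BOLA-DRA was 1.79 to 2.33 in 4 AD libraries and 1.06 to 1.54 in 3 NB libraries. Again 1 of 5 members was apart, against 2.57% of all genes. BOLA-DMA per BOLA-DRA UMI went the other way there, at 0.0736 to 0.0830 in AD and 0.0917 to 0.116 in NB, 1 of 5 members lower in each AD library against 5.45% of all genes. In FLT3 barcodes CD74 over BOLA-DRA was 1.66 and 1.90 in AD jejunum and duodenum and 0.741 to 1.02 in 5 NB libraries. There 3 of 5 members (BOLA-DMB, BOLA-DOA and CD74) were apart, against 7.6% of all genes, and 19.7% of all genes were apart the other way.

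T cell-list barcodes had 1.68 to 2.55 CD74 UMIs per BOLA-DRA UMI in AD and 0.907 to 1.63 in the 5 NB libraries with at least 10 BOLA-DRA UMIs. NB abomasum, with 9 CD74 and 5 BOLA-DRA UMIs (a ratio of 1.8), lay inside the AD range, and with it the groups overlapped in 5 of 6 other settings. Not every class II gene separated the stages in this measure. BLA-DQB, a DQ beta chain gene, had 0.467 to 0.711 UMIs per BOLA-DRA UMI in NB and 0.477 to 0.574 in AD PTPRC barcodes, and BOLA-DMB over BOLA-DRA overlapped in macrophage-list barcodes as well, at 0.0549 to 0.114 in NB and 0.0645 to 0.0925 in AD. Since all AD libraries came from 1 cow, a ratio that is shared by the 4 of them cannot be told apart from a trait of that animal.

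**Figure D3:**
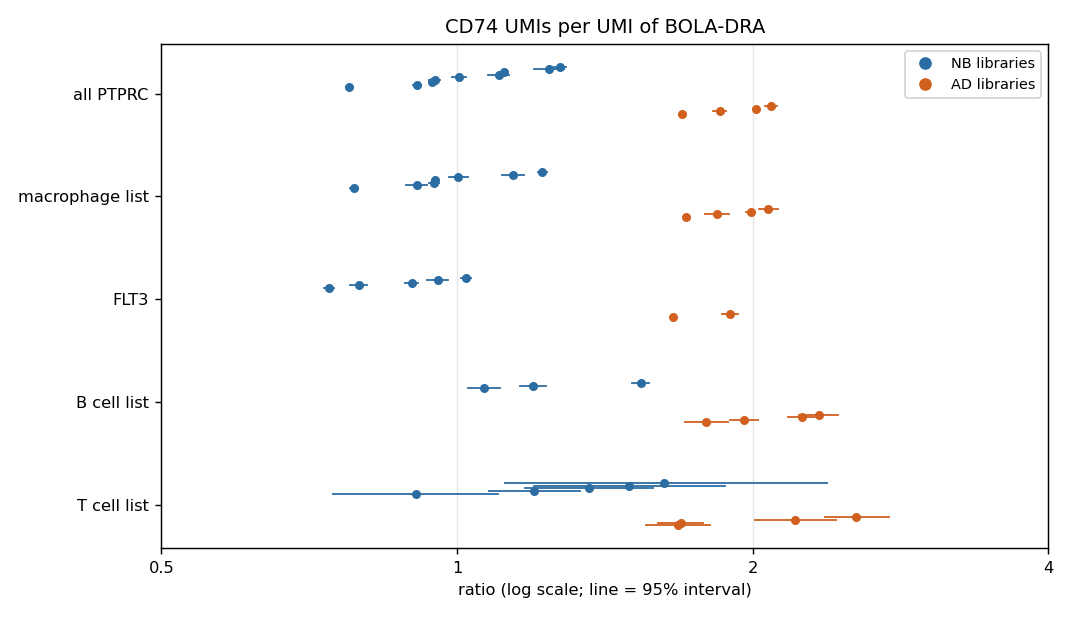
CD74 UMIs per UMI of BOLA-DRA (log scale) in all PTPRC barcodes and in 4 types of leukocyte barcodes, 1 point per library with at least 10 BOLA-DRA UMIs (NB blue, AD orange), with its 95% interval. AD libraries lay at 1.66 or higher throughout, and NB libraries lay at 1.27 or lower in all PTPRC, macrophage-list and FLT3 barcodes and at up to 1.63 in B and T cell-list barcodes.

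B cell-list barcodes carried less BOLA-DRA and more BOLA-DOB than macrophage-list barcodes of the same library. CIITA in macrophages was 0.221 to 1.203 times its level in B cells over 6 libraries, below 1 in 5 of them and with an interval below 1 in 4. BOLA-DOB, the beta chain of the DO dimer, was lower in macrophages in 6 of 6 libraries, at 0.140 to 0.279 times the B cell level. BOLA-DOA, its alpha chain, went the other way, at 1.53 to 3.07 times the B cell level. The number of BOLA-DOA UMIs per BOLA-DOB UMI was therefore 4.59 to 8.57 in macrophage-list and 0.251 to 0.613 in B cell-list barcodes, with no overlap between the types in either stage.

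Between stages, CD74 was again higher in AD in B cell-list barcodes, with CIITA and BOLA-DOA next. In colon, where both stages could be compared, CD74 measured 2982 CPM in NB and 6665 CPM in AD, a ratio of 2.24 (2.17 to 2.31), while BOLA-DRA measured 2496 and 2855 CPM, a ratio of 1.14 (1.095 to 1.195). CIITA measured 20.7 and 41.3 CPM there, a ratio of 1.99 (1.31 to 2.998), and BOLA-DOA 61.9 and 100.5 CPM, a ratio of 1.62 (1.26 to 2.08). CD74 was the 1 of 6 members at least 2-fold higher in AD, against 6.29% of all genes. Over all libraries, BOLA-DOA (100.5 to 129 CPM in 4 AD libraries and 51.6 to 94.2 CPM in 3 NB libraries), CD74 (5532 to 7863 and 2141 to 4836 CPM) and CIITA (41.3 to 51.1 and 18.9 to 40.6 CPM) were higher in each AD than in any NB library, 3 of 6 members against 11.2% of all genes. The gaps of BOLA-DOA and CIITA between AD colon (95 and 39 UMIs) and NB salivary gland (116 and 50 UMIs) were within counting error. BOLA-DRA overlapped, with 2467 to 4382 CPM in AD, 1393 CPM in NB ileum, 2496 CPM in NB colon and 4541 CPM in NB salivary gland. The AD B cell-list barcodes held 16917 to 44633 CPM of the plasma cell markers, against 349 to 2931 CPM in NB, so the barcodes compared were not alike in their mix of B and plasma cells; what part this had in the member levels was not tested.

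FLT3 barcodes had high BOLA-DRA in every library with at least 50 of them. BOLA-DRA measured 11422 CPM in NB liver at the lowest, 13752 CPM at the median and 15798 CPM in NB cecum at the highest over 5 NB libraries, and 18044 and 18568 CPM in AD duodenum and jejunum. CD74 measured 8461 to 16118 CPM in NB and 30811 and 34208 CPM in AD, and CIITA measured 6.75 to 32.1 CPM in NB and 32.2 and 34.8 CPM in AD. All 6 members were higher in both AD libraries than in the 5 NB libraries, but 25.5% of all genes were too. For CIITA the gap, between 32.1 CPM in NB and 32.2 CPM in AD, was within counting error.

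Leukocytes taken as a whole showed the opposite direction. In PTPRC barcodes BOLA-DRA measured 18432 CPM in NB and 2959 CPM in AD duodenum, 15365 and 12825 CPM in jejunum, 10890.5 and 880 CPM in cecum, and 3146 and 870 CPM in colon. NB was higher in each tissue, by 6.23 times (6.17 to 6.29) in duodenum, 1.198 times (1.192 to 1.204) in jejunum, 12.4 times (12.2 to 12.5) in cecum and 3.61 times (3.55 to 3.68) in colon. In the order of all 13 libraries, from NB duodenum at the top through NB rectum (4959 CPM), abomasum (4369 CPM), liver (3875 CPM), ileum (2396 CPM) and salivary gland (1042 CPM) to AD cecum and AD colon at the bottom, only the intervals of the last pair overlapped.

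The DM and DO alpha genes had the same direction as BOLA-DRA there, and CD74 did in 3 of the 4 tissues. At least 2-fold higher in NB were 5 of 6 members in duodenum (all but CIITA; 13.9% of all genes), 5 of 6 in cecum (all but CIITA; 15.2%) and 4 of 6 in colon (BOLA-DRA, BOLA-DMA, BOLA-DMB and BOLA-DOA; 11.9%). In jejunum 0 of 6 members were 2-fold apart in either direction, against 14.3% of all genes; CD74 was higher in AD there, with 14485 CPM in NB and 21720 CPM in AD, and so was CIITA, with 10.9 and 17.6 CPM. CIITA differed least in duodenum, with 11.8 CPM in NB and 9.47 CPM in AD, and it was lower in AD by 0.76 in cecum and 0.84 in colon on the log2 scale with 5 CPM added.

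The mix of leukocytes differed between the same libraries. T cell-list barcodes made up 71.2% of PTPRC barcodes in AD duodenum, 28.8% in AD jejunum, 80.7% in AD cecum and 81.0% in AD colon, against 3.81%, 2.32%, 13.1% and 18.6% in the NB libraries in that order. Macrophage-list barcodes made up 53.1%, 74.6%, 28.2% and 7.91% in NB and 5.79%, 33.6%, 1.015% and 1.24% in AD. Jejunum, the tissue in which macrophage-list barcodes were most frequent at both stages, was also the one in which all 6 members were within 2-fold between the stages. In NB ileum, which ranked low for BOLA-DRA, 69.8% of PTPRC barcodes were of the B cell list. The part of this mix in the member levels was not tested.

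**Figure D4:**
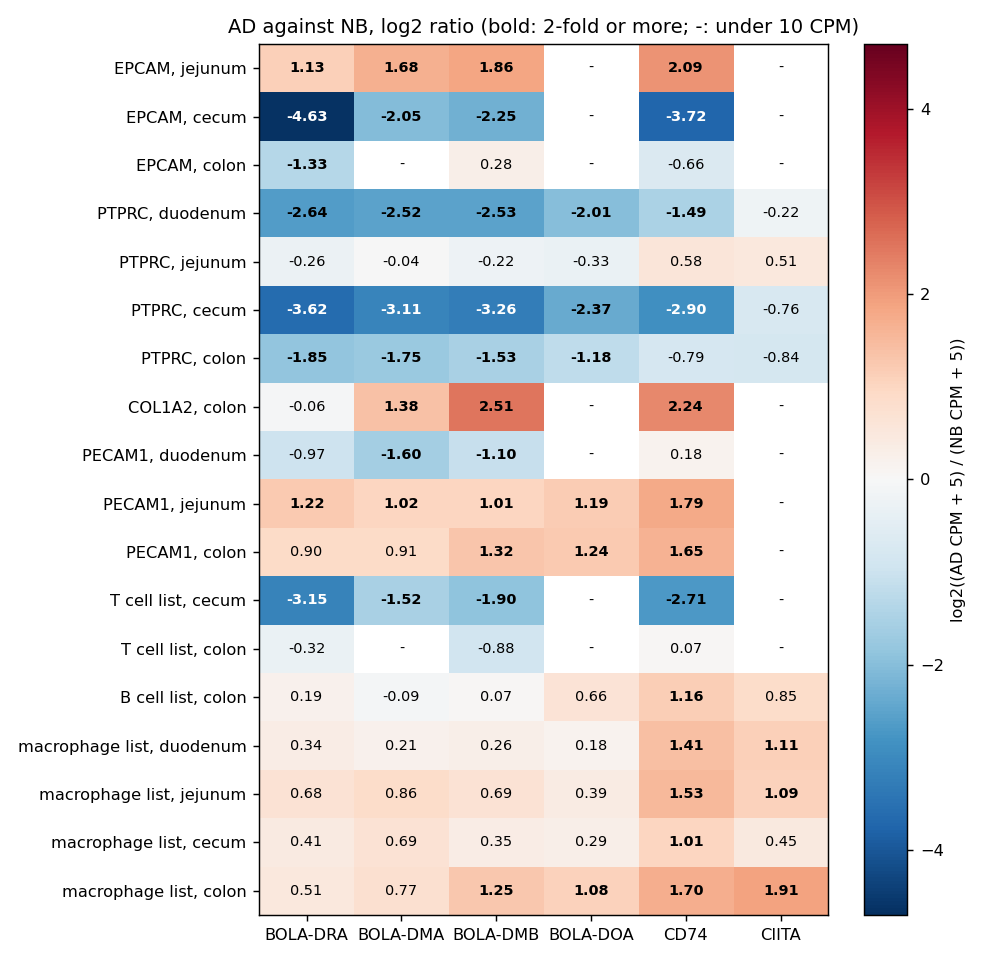
Log2 ratio of AD to NB with 5 CPM added, for each member (columns) in each group of barcodes and tissue with at least 50 barcodes at both stages (lines of the grid); red is higher in AD, blue higher in NB, bold marks 2-fold or more and a dash marks levels under 10 CPM. PTPRC barcodes were blue in duodenum, cecum and colon (BOLA-DRA -2.64, -3.62 and -1.85), whereas macrophage-list barcodes were red for CD74 in all 4 tissues (1.01 to 1.70).

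T cell-list barcodes had little class II RNA. BOLA-DRA measured 28.0 CPM in AD colon, 52.6 CPM in cecum, 55.2 CPM in duodenum and 292 CPM in jejunum, and 10.1 CPM at the lowest (abomasum), 63.8 CPM at the median and 505 CPM at the highest (cecum) in 6 NB libraries. The high NB cecum value rested on few barcodes: the top 5% of them held 80.8% of the BOLA-DRA UMIs, with up to 261 in 1 barcode. CIITA stayed at or under 0.929 CPM in all of these libraries. Of the members tested, 4 of 4 in cecum (BOLA-DRA, BOLA-DMA, BOLA-DMB and CD74) were at least 2-fold higher in NB, against 12.2% of all genes. Of 21 genes tested there from the pathway list described below, 4 (IFI30, IRF4, SPI1 and LAG3) were higher in NB too. In AD 1 of the 21 (CD86) was higher, against 10.3% of all genes. In colon 0 of 3 members were 2-fold apart in either direction, against 18.4%.

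Class II RNA was counted in endothelial barcodes of the newborn. In NB barcodes with PECAM1, at least 2 UMIs of an endothelial list (CDH5, VWF, CLDN5, ESAM, EGFL7, KDR) and no leukocyte marker, BOLA-DRA measured 108 CPM in reticulum, 204 CPM in omasum, 417 CPM in abomasum, 558.5 CPM in duodenum, 729 CPM in ileum, 754 CPM in rectum, 819 CPM in cecum and 1086 CPM in jejunum. The stomach compartments were lowest, and 10.4 to 59.6% of barcodes had a BOLA-DRA UMI at 1000 UMIs each (25.0 to 88.7% unthinned). The shares of reticulum (10.4%) and omasum (15.8%) were no higher than the 15.9% reached in T cell-list barcodes of another library. Within their own libraries the BOLA-DRA level in PECAM1 barcodes free of leukocyte markers was 71.6 times (51.4 to 100.3) that of such EPCAM barcodes in reticulum and 198 times (146 to 270) in omasum. Compared with other barcodes free of leukocyte markers in the same library, PECAM1 barcodes had 7.04 to 62.1 times the BOLA-DRA level of COL1A2 barcodes (7 of 7 libraries; the highest, reticulum, with an interval of 10.9 to 2478) and 8.02 to 198 times that of EPCAM barcodes (8 of 8). CD74, BOLA-DMA and BOLA-DMB were higher in PECAM1 barcodes in all 8 libraries of both comparisons. BOLA-DOA was not, with 2 of 4 libraries higher in each. Before the barcodes with leukocyte markers were left out, BOLA-DRA and CD74 in PECAM1 barcodes were taken as a percentage of their level in PTPRC barcodes. They lay inside the range of 13 or fewer leukocyte genes in 6 of 8 NB libraries and above the median of those genes in 8 of 8. These 8 libraries included colon and liver. Reticulum and omasum, with 10 and 8 PTPRC barcodes, were not among them. The part of free RNA in these levels was not tested.

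Vessel types differed too. Here barcodes with leukocyte markers were kept, and the leukocyte list summed to 44.5 to 141 CPM in venous and 87.6 to 384 CPM in lymphatic barcodes, lower in the venous ones in each of the 7 libraries. PECAM1 barcodes with at least 2 UMIs of the venous markers ACKR1 and SELP had more CD74 than those with at least 2 UMIs of the lymphatic markers PROX1, LYVE1, CCL21 and MMRN1 in 7 of 7 NB libraries, by 1.19 times in cecum to 7.76 times in ileum. BOLA-DMA was higher in 7 of 7 (1.41 to 10.3 times), and BOLA-DRA in 6 of 7 (0.972 times in cecum to 11.9 times in ileum). BOLA-DMB was higher in venous barcodes in 6 of 7 libraries. BOLA-DOA was lower in venous barcodes in 3 of 3 libraries, at 0.212 to 0.870 times the lymphatic level, with an interval below 1 in 1 of them.

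AD barcodes with PECAM1 went against an endothelial reading and are described by the gene alone. They held 65222 to 164597 CPM of the plasma cell markers, against at most 1387 CPM in NB, and 43.8 CPM (duodenum), 1703 CPM (jejunum) and 2304 CPM (colon) of the endothelial list, against 1092 to 5065 CPM in NB. Only 8, 18 and 11 of them were free of leukocyte markers, too few to compare. BOLA-DRA measured 1438 CPM in NB and 733 CPM in AD duodenum, 2628 and 6110 CPM in jejunum, and 1733 and 3246 CPM in colon, so it was higher in AD in jejunum and colon and lower in duodenum, where the log2 ratio of -0.97 turned to 1.10 when thinned, 1.09 with each barcode weighted alike and 0.18 when centred on the median of all genes. In jejunum 5 of 5 members tested were at least 2-fold higher in AD (5.32% of all genes) and in colon 3 of 5 (BOLA-DMB, BOLA-DOA and CD74, 4.84%). In duodenum 2 of 4 (BOLA-DMA and BOLA-DMB) were at least 2-fold higher in NB. There 56.6% of all genes were too, and the median of all genes was shifted by -1.15 on the log2 scale. Those 2 also turned sign, BOLA-DMA to 0.14 when thinned and 0.098 with each barcode weighted alike. BOLA-DMB turned to 1.05 and 0.55 in these settings and to 0.053 when centred.

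Epithelial barcodes had low levels that varied with the library. BOLA-DRA in EPCAM barcodes measured 750.0 CPM in AD jejunum, 33.9 CPM in AD colon and 21.2 CPM in AD cecum, and 1.45 CPM (reticulum), 123 CPM (median) and 644 CPM (cecum) at the lowest, middle and highest of 10 NB libraries. The squamous epithelium of reticulum and omasum was lowest, and abomasum followed with 8.34 CPM. The stages differed in opposite directions: in jejunum 4 of 4 members tested (BOLA-DRA, BOLA-DMA, BOLA-DMB and CD74) were at least 2-fold higher in AD, against 15.6% of all genes, in cecum the same 4 of 4 were higher in NB, against 6.32%, and in colon 1 of 3 (BOLA-DRA) was higher in NB, against 4.52%. The median of all genes was shifted toward AD by 0.19 to 0.39 on the log2 scale in these tissues. With barcodes of several lineage genes kept, BOLA-DRA in jejunum turned to -0.13 on the log2 scale and 0 members were past 2-fold. BOLA-DRA in colon turned to 0.013 with all deposited barcodes and to 0.38 without barcodes holding leukocyte markers. CD74 measured 371 CPM in NB and 1600 CPM in AD jejunum, 726 and 50.3 CPM in cecum, and 130 and 80.3 CPM in colon.

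Leukocyte genes were set beside the members in these barcodes. In each library the EPCAM level of a gene was given as a percentage of its PTPRC level, for BOLA-DRA, CD74 and 10 to 13 leukocyte genes (CD3D, CD3E, CD79A, CD79B, MS4A1, C1QA, C1QB, CSF1R, CD52, CORO1A, LCP1, CD53 and LAPTM5, where PTPRC barcodes held at least 50 UMIs of them). BOLA-DRA and CD74 lay inside the range of the leukocyte genes in 11 of 11 libraries, above their median in 2 and 8 of them. The range was wide in some libraries, as in NB cecum (1.58 to 98.8%) and AD jejunum (2.00 to 63.3%), so a place inside it decides little. In colon the median of the leukocyte genes was 3.99% in NB and 2.46% in AD. BOLA-DRA went the other way there (2.96 and 3.89%), and so did CD74 (4.12 and 4.42%). The top 5% of EPCAM barcodes held 42.1 to 100% of the BOLA-DRA UMIs. Without the barcodes that held a UMI of the T cell, B cell or macrophage lists or of CD52, CORO1A, LCP1, CD53, CD37 and LAPTM5, BOLA-DRA in cecum was 102 CPM in NB and 5.19 CPM in AD, and in colon it was 16.0 CPM in NB and 22.3 CPM in AD; AD jejunum kept 38 such barcodes, too few to compare. A cell type in which class II genes are low, the T cell-list barcodes above, had thinned shares with a BOLA-DRA UMI of up to 15.9%. The EPCAM shares were 0.138 to 24.7% in NB and 1.74 to 26.5% in AD (unthinned 1.09 to 69.4% and 8.55 to 70.7%). Their highest values lay above 15.9%, but the EPCAM and T cell-list shares were not compared within a library. What part leukocyte RNA had was not tested, so no epithelial expression is read from the levels here.

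**Figure D5:**
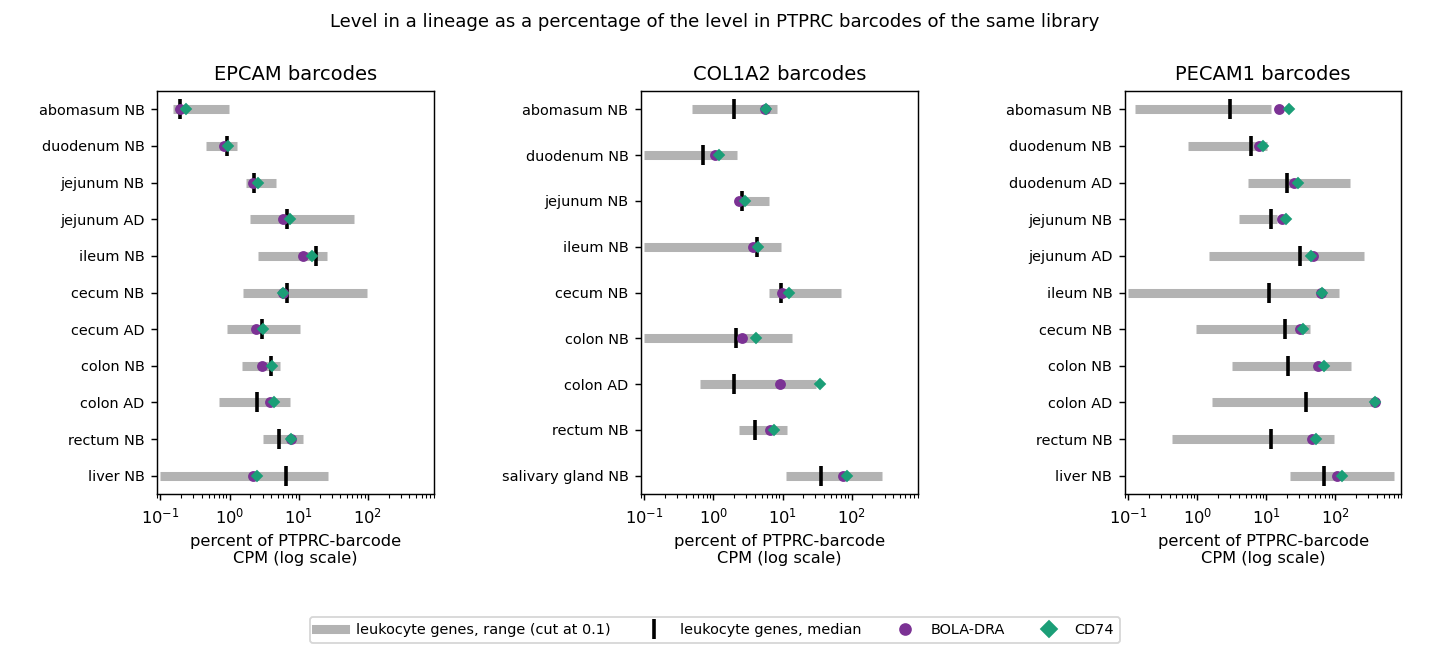
Level of BOLA-DRA (purple) and CD74 (green) in EPCAM, COL1A2 and PECAM1 barcodes as a percentage of the level in PTPRC barcodes of the same library (log scale), with the range (grey bar) and median (black mark) of the leukocyte genes. Both genes lay inside the grey range in all EPCAM panels; CD74 stood above it in AD colon COL1A2 barcodes (34.6%), and in PECAM1 barcodes both lay inside it in 9 of 11 libraries and above it in NB abomasum and NB jejunum.

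Fibroblast barcodes of the adult colon stood out for CD74 and BOLA-DMB. COL1A2 barcodes numbered 216 in NB and 152 in AD colon. CD74 measured 129 CPM in NB and 630 CPM in AD, a ratio of 4.88 (4.12 to 5.80), and BOLA-DMB measured 14.0 and 103 CPM, a ratio of 7.37 (4.50 to 12.7). BOLA-DMA measured 5.90 and 23.5 CPM, whereas BOLA-DRA measured 82.6 and 78.8 CPM, a ratio of 0.954 (0.710 to 1.28). In all, 3 of 4 members tested were at least 2-fold higher in AD, against 9.73% of all genes. With each barcode thinned to 1000 UMIs the log2 ratio of CD74 fell to 0.80 and that of BOLA-DMB to 1.45, and with each barcode weighted alike they fell to 0.64 and 1.60, so BOLA-DMB alone stayed past 2-fold.

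CD74 in these AD barcodes reached 34.6% of its PTPRC level, above all 13 leukocyte genes (0.649 to 30.3%, median 2.00%), while BOLA-DRA reached 9.06%. Without the barcodes that held a leukocyte marker, CD74 measured 28.6 CPM in NB and 290 CPM in AD colon, BOLA-DMB 4.77 and 121 CPM, and BOLA-DRA 23.8 and 31.4 CPM, so the ratios of CD74 and BOLA-DMB were larger without them. Few barcodes carried those values: of the 67 AD barcodes, the top 5% held 68.3% of the CD74 and 68% of the BOLA-DMB UMIs, and after thinning a CD74 UMI was found in 10.4% (4.30 to 20.3%) of them and 1.49% (0.181 to 5.29%) of NB barcodes. Among all COL1A2 barcodes of colon, a CD74 UMI was found after thinning in 20.4% (14.3 to 27.7%, exact binomial interval) of AD and 7.51% (4.35 to 11.9%) of NB barcodes (49.3 and 23.1% unthinned). The ratio CD74 over BOLA-DRA was 7.99 in AD colon and 0.682 to 1.56 in the 9 NB libraries with at least 10 BOLA-DRA UMIs; NB reticulum held 5 CD74 UMIs and 1 BOLA-DRA UMI. The barcodes carried the fibroblast list (COL3A1, COL1A1, DCN, LUM, PDGFRA, COL6A1) at 16152 CPM and plasma cell markers at 1379 CPM.

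A class II gene that is no member, BOLA-DYB, a DY beta chain gene of ruminants, was counted in EPCAM barcodes of the NB duodenum and of the jejunum. Its UMIs were also found in EPCAM barcodes of NB abomasum and ileum, with levels not given here. B cell-list barcodes of AD duodenum, cecum and colon held it too. In EPCAM barcodes BOLA-DYB measured 7.10 CPM in NB duodenum, 8.76 CPM in NB jejunum and 33.4 CPM in AD jejunum, 3.81 times higher (2.71 to 5.32) in AD. These barcodes held 267 of the 277 BOLA-DYB UMIs of NB duodenum, 93 of 108 of NB jejunum and 61 of 73 of AD jejunum, and all of those in EPCAM barcodes lay in barcodes with at least 2 UMIs of an enterocyte list (FABP2, APOA1, APOA4, ANPEP, VIL1). Such barcodes held 98.7%, 91.1% and 82.5% of all EPCAM UMIs in these libraries, so little is read from that. In the EPCAM barcodes of both stages of cecum and colon 0 UMIs were counted. The same held in NB reticulum, omasum, rectum and liver. At a limit of 3 counts, a count of 0 allows levels of up to 0.0420 CPM in NB omasum to 3.40 CPM in NB liver. Unlike BOLA-DRA, BOLA-DYB kept its level in EPCAM barcodes free of leukocyte markers, with 7.76 CPM in NB duodenum and 10.8 CPM in NB jejunum. It also reached 9.70 CPM in AD duodenum, 4.35 CPM in AD cecum and 16.9 CPM in AD colon B cell-list barcodes, against 0.928 CPM in NB colon. In AD jejunum all PTPRC barcodes together held 7 BOLA-DYB UMIs. In AD duodenum, which had 49 EPCAM barcodes and 0 BOLA-DYB UMIs in them, PTPRC barcodes held 53 of the 73 UMIs.

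The rest of the pathway was read from a list of 29 genes for peptide processing, class II regulators, the interferon gamma axis, costimulation and class II ligands. In macrophage-list barcodes 24 of them were tested in each tissue. Higher in AD by at least 2-fold were 2 in duodenum, 5 in jejunum, 2 in cecum and 10 in colon, and higher in NB were 1, 2, 3 and 3. The shares of all genes were those given above for AD (7.62% in cecum, which the 2 of 24 are near) and 4.28%, 4.58%, 8.02% and 7.74% for NB. CD4, the coreceptor that binds class II molecules, was higher in AD in all 4 tissues (30.0 and 98.1 CPM, 66.1 and 222 CPM, 25.0 and 161 CPM, 2.12 and 370 CPM in NB and AD). The NB colon value rested on 2 CD4 UMIs, which gives a ratio of 174 (47.6 to 1447).

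The genes IRF8, IRF4 and IRF1 of the interferon regulatory factor family were on the list and differed in direction. IRF8 measured 13.4 CPM in NB and 176 CPM in AD duodenum, 12.6 and 184 CPM in jejunum, 113 and 159 CPM in cecum, and 3.18 and 161 CPM in colon, past 2-fold in all but cecum. The NB colon value of IRF8 rested on 3 UMIs. IRF4 was higher in NB in all 4 tissues (15.4 and 4.40 CPM, 25.8 and 9.92 CPM, 57.9 and 10.4 CPM, 44.6 and 5.13 CPM). IRF1 was past 2-fold higher in AD in jejunum (91.2 and 231 CPM) and colon (115 and 262 CPM), and within 2-fold in duodenum (76.1 and 85.5 CPM) and cecum (149 and 135 CPM). CTSS, a protease that cleaves the invariant chain, was past 2-fold in jejunum (2156 and 4340 CPM) and colon (1268 and 5002 CPM). CTSD, from the same processing genes, was past 2-fold higher in NB in jejunum and colon and in AD in cecum. The regulator RFXANK was past 2-fold higher in NB in colon. RFX5, which recruits CIITA to class II promoters, measured 9.85 and 22.6 CPM, 11.4 and 17.8 CPM, 8.34 and 13.0 CPM, and 7.43 and 13.7 CPM, under 2-fold on the log2 scale with 5 CPM added in each tissue. In PTPRC barcodes IFNG, the cytokine known for switching CIITA on, was higher in AD in all 4 tissues (4.90 and 26.0 CPM, 2.49 and 50.5 CPM, 14.6 and 66.6 CPM, 16.2 and 154 CPM). T cell-list barcodes made up a larger share of the AD PTPRC barcodes, as given above. Within T cell-list barcodes IFNG measured 53.2 CPM in NB and 83.7 CPM in AD cecum, under 2-fold, and 42.3 and 182 CPM in colon, past 2-fold; duodenum and jejunum had too few such barcodes in NB.

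The gene most like BOLA-DRA in pattern, members left out, was BLA-DQB. Over 50 groups of barcodes (a library and lineage with at least 50 barcodes) and 11077 genes, Pearson's r with BOLA-DRA on the log2 scale was 0.996 for BLA-DQB and 0.929 for TYROBP, an adaptor protein of myeloid cells, with 3 genes that carry only an identifier between them (0.993, 0.990 and 0.979), any of which could be a class II gene without a symbol here, BOLA-DRB3 included. Among the members, r with BOLA-DRA was 0.981 for CD74, 0.952 for BOLA-DMB, 0.950 for BOLA-DMA, 0.894 for BOLA-DOA and 0.740 for CIITA. Among genes that are no members, CIITA was most like BOLA-DOB (0.871), SCIMP (0.865), CD72 (0.865), INPP5D (0.842) and KLHL6 (0.830). Of these, CD72 encodes a surface protein of B cells. The member BOLA-DOA reached 0.840 and BOLA-DMA 0.831. The 50 points share libraries and differ in depth, and the values are descriptions across groups that hold leukocytes and groups that do not.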

How the data were processed

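Cells of the 15 libraries were prepared with 10x Genomics chemistry. The deposited values are whole-number counts of UMIs per gene and barcode, which the authors made with Cell Ranger 3.1.0 (per the submitters' processing notes) against ARS-UCD1.2; the annotation release is not given in the sources used here. Barcodes were kept if their mitochondrial share was below 40%, their total below 50000 UMIs and their genes numbered between 500 and 4000. Doublet scores were computed with Scrublet in scanpy 1.11.5, with 2 simulated doublets per barcode and 30 components, and the top scores were removed at 0.8% per 1000 barcodes. Counts were summed per library and group and given as CPM. With 1 library per tissue and stage, a difference was called at 2-fold on log2(CPM + 5), among genes with at least 10 CPM in either library and groups of at least 50 barcodes in both, and no test was run. The 2-fold call and the ratio intervals were tested on summed counts simulated by Poisson draws. Filtering, doublet removal and the assignment of barcodes to groups were not simulated. Members, lists and rules were chosen with earlier results of these data known. The genes named were the members, other class II symbols, the pathway list and the 5 genes most like BOLA-DRA and CIITA. Python 3.11.15, numpy 2.4.6, scipy 1.17.1, pandas 2.3.3 and matplotlib 3.10.9 were used. No sequences were analysed here.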

Additional observations from a re-analysis of the deposited data

Results flagged for a closer look

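Members differed between the stages in opposite directions in different tissues, and these differences between tissues were not tested. In EPCAM barcodes the log2 ratio of AD to NB for BOLA-DRA was 1.13 in jejunum, -4.63 in cecum and -1.33 in colon. In jejunum it turned to -0.13 with barcodes of several lineage genes kept. In colon it turned to 0.013 with all deposited barcodes and to 0.38 without barcodes holding leukocyte markers. For BOLA-DMA the log2 ratio was 1.68 in jejunum and -2.05 in cecum, for BOLA-DMB 1.86 and -2.25, and for CD74 2.09 and -3.72. In PECAM1 barcodes BOLA-DMA was at -1.60 in duodenum and 1.02 in jejunum, and BOLA-DMB at -1.10 in duodenum, 1.01 in jejunum and 1.32 in colon. The duodenum values turned sign in other settings. BOLA-DMA went to 0.14 thinned and 0.098 averaged over barcodes, and BOLA-DMB to 1.05 thinned, 0.55 averaged and 0.053 centred. The EPCAM values of BOLA-DRA and CD74 lay inside the wide range of leukocyte genes in the same barcodes. The AD PECAM1 barcodes held plasma cell markers at 65222 to 164597 CPM, as given above. What part leukocyte or plasma cell RNA had was not tested.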

How the results depend on the processing

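Within a tissue no paired analysis was possible, because the labels give 1 library per tissue and stage with no replicate numbers to block on. The stages were set side by side within 4 tissues. No test over these 4 pairs was run, since all AD libraries came from 1 cow. Of the counts of members recomputed, 144 stayed within 1.5 times and 29 did not. Of 1026 single log2 ratios, 635 were marked inside the counting interval of the reported ratio and 382 outside it. The other 9, past 2-fold, turned sign. The log2 ratios have 5 CPM added and the interval does not. With 0 UMIs at one stage, small shifts were marked outside too, as for CIITA in COL1A2 colon (0.46 reported, 0.45 with doublets kept). Direction was kept by 968 of the 1026, and by 526 of the 536 that were past 2-fold. The order of CD74 over BOLA-DRA in PTPRC, macrophage-list and B cell-list barcodes held in each setting run. Counts of members past 2-fold that moved are given here. EPCAM jejunum (4) went to 0 with barcodes of several lineage genes kept. EPCAM cecum (4) went to 2 with at least 2 EPCAM UMIs and to 2 with at least 50 CPM. EPCAM colon (1) went to 0 with at least 2 EPCAM UMIs, barcodes of several lineage genes kept, doublets kept, all deposited barcodes, under 10% mitochondrial UMIs or no upper limit on genes, to 0 without barcodes holding leukocyte markers (chosen after seeing the data), to 3 when thinned to 1000 UMIs or averaged over barcodes, and to 2 when centred on the median of all genes. COL1A2 colon (3) went to 1 when thinned or averaged. PECAM1 duodenum (2) went to 0 when thinned, averaged or centred and to 1 with 20 CPM added, PECAM1 jejunum (5) to 2 with several lineage genes kept or 20 CPM added, and PECAM1 colon (3) to 0 with several lineage genes kept and to 5 with all deposited barcodes, no upper limit on genes or centring. Macrophage-list duodenum and jejunum (2 each) went to 1 with 20 CPM added, and cecum (1) to 0 with at least 3 list UMIs. Of the 5 genes most like CIITA, 0 remained in PTPRC barcodes alone. Of the 58 log2 ratios that did not keep their direction, 48 were within 2-fold in the values reported, among them BOLA-DRA in COL1A2 colon and in PECAM1 duodenum. The 10 past 2-fold were BOLA-DOA in EPCAM cecum (0 without leukocyte markers), BOLA-DRA in EPCAM jejunum (-0.13, several lineage genes kept) and EPCAM colon (0.013 with all deposited barcodes, 0.38 without leukocyte markers), BOLA-DMA in PECAM1 duodenum (0.14 thinned, 0.098 averaged), BOLA-DMB there (1.05 thinned, 0.55 averaged, 0.053 centred) and BOLA-DOA in PECAM1 colon (-0.0307, several lineage genes kept). The causes were not tested. At least 2 PECAM1 UMIs were not run (21, 45 and 26 AD barcodes), nor were barcodes without leukocyte markers in EPCAM jejunum (38) and PECAM1 duodenum, jejunum and colon (8, 18 and 11). For the T cell, B cell and macrophage lists, stage ratios were recomputed only with at least 3 list UMIs, doublets kept, or 1 or 20 CPM added. These ratios were not recomputed thinned, averaged, centred or under 10% mitochondrial UMIs. Limits: 1 library per tissue and stage, 1 AD cow, and free RNA in droplets that was not measured apart.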
